A study of Mus musculus with 2 samples.

Results

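A group of 9 genes that act on extracellular ATP, NAD and adenosine was followed across the cell types of the optic nerve in mice with optic glioma, at the level of single-cell RNA counts. They are Entpd1, Nt5e, Cd38, Ada and Dpp4, which code for enzymes that work at the cell surface or, for Ada, chiefly in the cytosol, and Adora2a, Adora2b, P2rx7 and P2rx4, which code for receptors. They were chosen by name, as the rows of both deposited count matrices that carry these symbols, and each symbol matched 1 row of the 32285 genes in the files, so that all 9 members were measured. The mice were Nf1-OPG mice (Nf1flox/neo; GFAP-Cre), in which every cell carries 1 Nf1 allele broken by a neomycin cassette in exon 31 and the other is removed by Cre under the GFAP promoter in neuroglial progenitors. The 2 libraries share that genotype and an age of 12 weeks, and each pools the optic nerves of 10 mice. One library came from mice treated with anti-PD-1 (the labels write anti-PDCD1), which blocks the checkpoint receptor that Pdcd1 codes for, and the other from mice treated with anti-TIGIT. The labels give neither dose nor schedule, and an untreated library was not analysed here, so that the antibodies are compared with each other only.

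Cells under stress or dying release ATP, and immune cells read it as a danger signal through P2X receptors, which are channels opened by ATP. Entpd1 (CD39) takes ATP and ADP down to AMP, and Nt5e (CD73) turns AMP into adenosine, which dampens T cells and myeloid cells through receptors that raise cyclic AMP. Cd38 consumes NAD and so feeds the same route from another side, while adenosine deaminase, the product of Ada, removes adenosine by turning it into inosine. In the brain and optic nerve, microglia are known for a high level of Entpd1, and oligodendrocytes, which form myelin, are known to be harmed by sustained opening of P2X7.

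The anti-PD-1 library held 85031565 UMIs (unique molecular identifiers, counted RNA molecules) in 13997 barcodes, and the anti-TIGIT library 40733655 UMIs in 7915 barcodes. After filtering, 13267 and 7503 cells remained, with median depths of 4460 and 4126 UMIs, and 76.0% of them fell into 1 of 25 classes by marker gates, which do not use any of the 9 genes. Oligodendrocytes made up 21.7% and 28.5% of retained cells. The astrocyte gate was met by 24 and 13 cells, few for a nerve that astrocytes fill, and 16 and 42 cells met the gate of endocrine cells, a type foreign to the optic nerve. The protocol in the labels also mentions meningeal dura. Levels are given as CPM, the UMIs of a gene in a class and library scaled to a total of 1000000, for the 19 classes that held at least 30 cells in both libraries, and differences for the 16 that held at least 50. Values stand in the order anti-PD-1, anti-TIGIT. Each treatment has 1 library, so nothing here has a replicate check or a test, and the 95% intervals given in parentheses cover only the error of counting. The libraries were also made with different versions of Cell Ranger, 8.0.0 and 8.0.1, and version and antibody cannot be told apart. Both pools mix sexes, in shares that differ: Xist was found in 30.4% and 11.1% of CD8 T cells, 26.2% and 8.73% of undivided T cells and 20.8% and 4.23% of plasma cells, against 24.6% and 31.3% of microglia. Sex and antibody are thus not separate in these ratios, and values within Xist-positive cells and within cells with Y-linked transcripts are given where they change a direction. Of all barcodes, 163 occur in both libraries, 149 of them among retained cells.

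**Figure D1:**
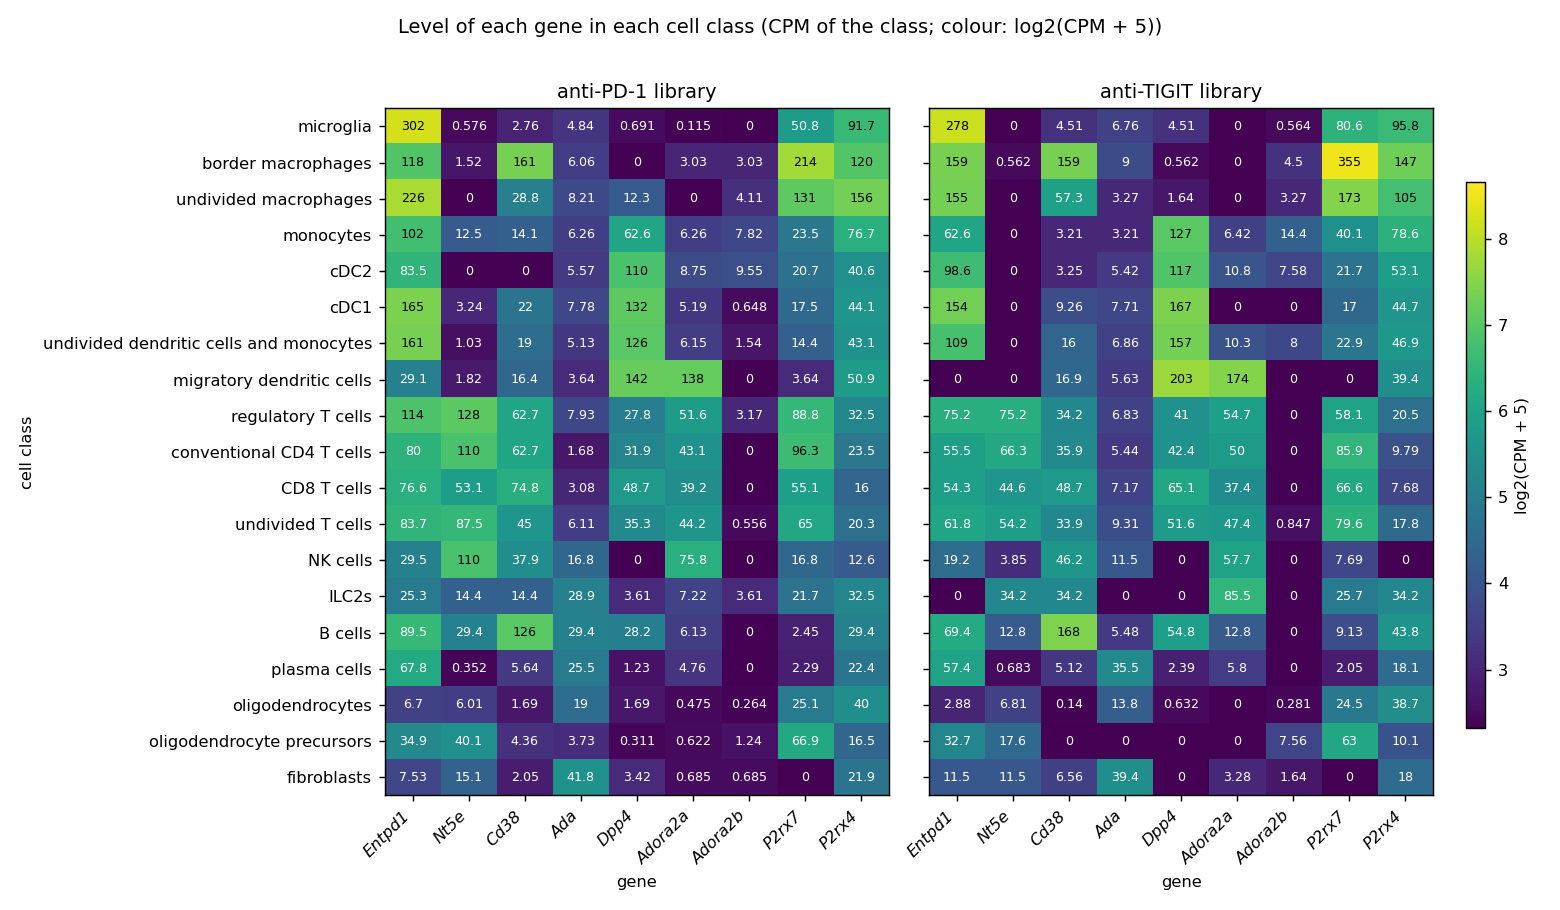
Level of each of the 9 genes (columns) in 19 cell classes (rows) for the anti-PD-1 library (left) and the anti-TIGIT library (right), with CPM printed in each cell and colour giving log2(CPM + 5), brighter for higher. Entpd1 is brightest in microglia at 302 and 278 CPM, P2rx7 in border macrophages at 214 and 355 CPM, and Adora2a in migratory dendritic cells at 138 and 174 CPM.

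Entpd1, on chromosome 19 (40612366 to 40741602 of mm10), gave 10015 UMIs in retained cells. Microglia, the resident macrophages of nervous tissue, held the highest level in both libraries, 302 CPM (290.3 to 314) in anti-PD-1 and 278 CPM (254 to 304) in anti-TIGIT. Border macrophages, which line the meninges and vessels, held 118 CPM (93.5 to 148) and 159 CPM (141 to 179), and type 1 dendritic cells (cDC1), which cross-present antigen to CD8 T cells, 165 CPM (145 to 186) and 154 CPM (126 to 188). All of these lay above the T cell classes in the anti-TIGIT library, and in anti-PD-1 the interval of border macrophages overlapped those of regulatory, conventional CD4 and undivided T cells. Among T cells, regulatory T cells, which carry Foxp3, held 114 CPM (96.3 to 134) and 75.2 CPM (47.1 to 114), conventional CD4 T cells 80.05 CPM and 55.5 CPM, and CD8 T cells 76.6 CPM and 54.3 CPM. At the other end stood fibroblasts at 7.53 and 11.5 CPM and oligodendrocytes at 6.70 and 2.88 CPM. Migratory dendritic cells, which carry antigen to lymph nodes, were also low, at 29.1 CPM and 0 of 177745 UMIs. In the latter 3 counts would have been 16.9 CPM. After each cell was thinned to 1000 UMIs, 23.2% (20.9 to 25.7) and 24.9% (20.9 to 29.3) of microglia held an Entpd1 UMI, against 0.938% and 0.351% of oligodendrocytes. Unthinned, the shares were 64.7% and 51.6% of microglia, at median depths of 5838 and 3648 UMIs, and 3.13% and 1.45% of oligodendrocytes, at 5943 and 6009.

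Entpd1 has 2 annotated starts in RefSeq on GRCm38.p6. Since the 5′ libraries read the first bases of a transcript, the windows from 250 bases before to 50 bases after each start are shown, at chr19:40612116-40612415 and chr19:40659520-40659819 on the plus strand. The deposited counts do not say which start was used. Capitals mark matches on either strand to GAGGAA (a core of ETS factors such as PU.1), TGACG (a core of the cyclic AMP response element), ACGTG (hypoxia response core), TGANTCA (AP-1), TGTGGT (RUNX core), TATAAA (a box near many starts) and CCAAT (a box bound by NF-Y).
Entpd1 first start: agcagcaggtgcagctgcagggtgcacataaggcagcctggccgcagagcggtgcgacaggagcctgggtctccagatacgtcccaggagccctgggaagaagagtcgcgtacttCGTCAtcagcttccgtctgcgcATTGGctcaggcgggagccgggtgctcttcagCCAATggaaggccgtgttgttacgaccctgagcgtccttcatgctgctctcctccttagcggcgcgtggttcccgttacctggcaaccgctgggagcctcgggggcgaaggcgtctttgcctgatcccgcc
Entpd1 second start: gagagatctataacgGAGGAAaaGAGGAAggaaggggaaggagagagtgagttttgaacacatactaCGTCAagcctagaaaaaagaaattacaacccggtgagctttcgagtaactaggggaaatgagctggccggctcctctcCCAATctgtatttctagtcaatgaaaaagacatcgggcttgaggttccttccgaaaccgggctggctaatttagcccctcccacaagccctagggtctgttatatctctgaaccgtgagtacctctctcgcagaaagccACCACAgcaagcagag
The window of the first start is richer in G and C (64.0%, against 48.7% in the second and a median of 52.7% over all 32851 promoter windows). The first holds a TGACG 135 bases before the start and CCAAT 113 and 81 bases before it. The second holds GAGGAA 235 and 227 bases before the start, TGACG 183 bases before it, CCAAT 105 bases before it and TGTGGT at base 35. Such matches are common, since 28.3% of all windows hold a GAGGAA, 20.8% a TGACG, 16.8% a TGTGGT and 37.4% a CCAAT.

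Nt5e, on chromosome 9 (88327609 to 88372089), was found chiefly in T cells in these libraries. It stood highest in regulatory T cells, at 128 CPM (109 to 149) and 75.2 CPM (47.1 to 114), and next in conventional CD4 T cells, at 109.7 CPM (94.9 to 126) and 66.3 CPM (50.8 to 85.2); the intervals of these neighbours overlap in both libraries, and gates asking for 1 more marker UMI put conventional CD4 T cells first, at a mean of 95.2 CPM against 79.3. CD8 T cells held 53.1 and 44.6 CPM. Oligodendrocyte precursors, the dividing cells that replace oligodendrocytes, held 40.1 CPM (33.5 to 47.7) and 17.6 CPM (7.09 to 36.3). In microglia 5 UMIs were found among 1348 cells and 0 among 469, and type 2 dendritic cells (cDC2), which prime CD4 T cells, held 0 in both. So the enzyme that follows Entpd1 on the route to adenosine was near 0 in the class with the highest Entpd1. Thinned to 1000 UMIs, 13% (9.44 to 17.4) and 8.86% (3.64 to 17.4) of regulatory T cells held an Nt5e UMI, against 0.0796% and 0% of microglia, where 0 of 429 cells allows up to 0.699%; unthinned shares were 30.7% and 18.8%, against 0.371% and 0%.

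Cells carrying both enzymes were looked for class by class at 1000 UMIs per cell. In regulatory T cells 12 of 299 cells in anti-PD-1 held UMIs of both Entpd1 and Nt5e, 4.01% (2.09 to 6.91), where the product of the single shares is 1.88%; in anti-TIGIT it was 1 of 79, 1.27% against a product of 0.449%. CD8 T cells held both in 4 of 1334 and 1 of 500 cells, 0.30% and 0.20%, against products of 0.343% and 0.212%. Conventional CD4 T cells held both in 1 of 486 and 1 of 288 cells, 0.206% and 0.347%, against products of 0.660% and 0.412%. Undivided T cells held both in 5 of 858 and 0 of 414 cells, 0.583% and 0%, against products of 0.699% and 0.273%. Without thinning, 34 of 303 regulatory T cells of anti-PD-1 held both, 11.2% (7.90 to 15.3) against a product of 9.72%.

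Cd38, on chromosome 5 (43868809 to 43912374), split the macrophages. Border macrophages held 161 CPM (132 to 194) and 159 CPM (141 to 179), while microglia held 2.76 CPM and 4.51 CPM. B cells followed border macrophages at 126 CPM (103 to 153) and 168 CPM (135 to 206), with intervals that overlap theirs and lie clear of the next class, CD8 T cells, at 74.8 CPM (68.1 to 82.0) and 48.7 CPM (39.4 to 59.5). Plasma cells, which arise from B cells, held 5.64 and 5.12 CPM. At 1000 UMIs per cell, 16.6% and 14% of border macrophages held a Cd38 UMI, against 0.430% and 0% of oligodendrocytes.

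Ada and Dpp4 both lie on chromosome 2, at 163726571 to 163750239 and at 62330073 to 62412315. Ada was low throughout. Its highest class was fibroblasts, at 41.8 CPM (32.0 to 53.7) and 39.4 CPM (25.2 to 58.6), then plasma cells, which secrete antibody, at 25.5 CPM (21.6 to 30.1) and 35.5 CPM (29.0 to 43.0), with overlapping intervals in the anti-TIGIT library. Oligodendrocytes held 19.0 and 13.8 CPM, and microglia 4.84 and 6.76 CPM. Dpp4, a peptidase that trims chemokines and whose human protein also anchors adenosine deaminase, marked dendritic cells and monocytes. Migratory dendritic cells held 142 CPM (112 to 177) and 203 CPM (142 to 280.4), cDC1 132 and 167 CPM, cDC2 109.8 and 117 CPM, and monocytes 62.6 and 127 CPM. Border macrophages held 0 and 1 Dpp4 UMIs in 163 and 473 cells, and NK cells 0 in both libraries, where 3 counts would have been 12.6 and 11.5 CPM. CD8 T cells held 48.7 and 65.1 CPM.

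Both adenosine receptors act through cyclic AMP, and their transcripts peaked in different classes. Adora2a, on chromosome 10 (75316877 to 75334792), was found in migratory dendritic cells at 138 CPM (109 to 173) and 174 CPM (119 to 248), and in NK cells at 75.8 CPM (44.9 to 119.8) and 57.7 CPM (32.3 to 95.2). The T cell classes followed closely, with regulatory T cells at 51.6 and 54.7 CPM, conventional CD4 T cells at 43.1 and 50.03 CPM and CD8 T cells at 39.2 CPM (34.4 to 44.4) and 37.4 CPM (29.3 to 47.0). Below CD8 T cells the level dropped, without overlap of intervals in either library, to cDC2 at 8.75 CPM (4.37 to 15.7) and 10.8 CPM (6.62 to 16.7). Group 2 innate lymphoid cells differed between the libraries, at 7.22 CPM (0.874 to 26.1) and 85.5 CPM (41.0 to 157). These values rest on 2 and 10 UMIs in 69 and 46 cells. In anti-TIGIT they came next after migratory dendritic cells, with an interval that overlaps that of NK cells. In microglia 1 UMI was found in 1348 cells and 0 in 469. Thinned shares were 11.3% (5.80 to 19.4) and 13.5% (4.54 to 28.8) of migratory dendritic cells, against 0.156% and 0% of oligodendrocytes; unthinned they were 43.5% and 52.6%. Adora2b, on chromosome 11 (62248984 to 62266452), gave 130 UMIs in all. They were most frequent in monocytes, 5 and 9 UMIs or 7.82 CPM (2.54 to 18.3) and 14.4 CPM (6.60 to 27.4), and cDC2, 12 and 14 UMIs or 9.55 and 7.58 CPM. CD8 T cells held 0 Adora2b UMIs in both libraries, where 3 counts would have been 0.486 and 1.54 CPM.

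P2rx7 and P2rx4 are neighbours on chromosome 5, at 122643927 to 122692336 and 122707518 to 122729739, and code for ATP-gated channels of which P2X7 needs far more ATP to open. P2rx7 was highest in border macrophages in both libraries, at 214 CPM (179.9 to 252) and 355 CPM (328 to 384). Microglia held 50.8 CPM (46.2 to 55.8) and 80.6 CPM (67.9 to 94.9), with intervals that overlap those of CD8 T cells at 55.1 and 66.6 CPM. Conventional CD4 T cells held 96.3 and 85.9 CPM, and regulatory T cells 88.8 and 58.1 CPM. Oligodendrocyte precursors stood at 66.9 CPM (58.3 to 76.5) and 63.0 CPM (40.8 to 93.0), above mature oligodendrocytes at 25.1 CPM (22.9 to 27.5) and 24.5 CPM (22.0 to 27.2). Fibroblasts held 0 UMIs in 199 and 115 cells. At 1000 UMIs per cell, 15.2% (9.76 to 22.1) and 21.4% (17.6 to 25.5) of border macrophages held a P2rx7 UMI. Of 194 and 110 fibroblasts 0% did, where 3 cells would have been 1.55% and 2.73%. The unthinned shares in border macrophages were 37.4% and 39.96%, at median depths of 3572 and 3188 UMIs.

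P2rx4 was also a macrophage gene, with a narrower spread. Border macrophages held 119.8 CPM (94.8 to 149) and 147 CPM (130.05 to 166), microglia 91.7 CPM (85.4 to 98.3) and 95.8 CPM (82.0 to 111), and monocytes 76.7 and 78.6 CPM. Unlike P2rx7 it was low in T cells, at 16.0 and 7.68 CPM in CD8 T cells and 23.5 and 9.79 CPM in conventional CD4 T cells. Mature oligodendrocytes held 39.99 CPM (37.2 to 42.9) and 38.7 CPM (35.5 to 42.1), above their precursors at 16.5 CPM (12.4 to 21.6) and 10.1 CPM (2.75 to 25.8), the opposite order to P2rx7. Over 32 points (16 classes in both libraries, which share their libraries and depths) the r between P2rx7 and P2rx4 on log2(CPM + 5) was 0.30.

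Because these neighbours share macrophages as their highest class, the windows at their annotated starts are shown from RefSeq on GRCm38.p6, plus strand, with capitals as above. P2rx7 has a start in each of chr5:122643677-122643976 and chr5:122650133-122650432, and P2rx4 in chr5:122707294-122707593.
P2rx7 first start: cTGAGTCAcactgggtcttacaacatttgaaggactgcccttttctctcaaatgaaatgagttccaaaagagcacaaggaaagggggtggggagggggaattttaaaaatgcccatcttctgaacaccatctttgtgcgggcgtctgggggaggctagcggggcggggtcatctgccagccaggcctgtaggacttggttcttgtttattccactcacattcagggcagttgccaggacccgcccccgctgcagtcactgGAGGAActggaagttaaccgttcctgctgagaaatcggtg
P2rx7 second start: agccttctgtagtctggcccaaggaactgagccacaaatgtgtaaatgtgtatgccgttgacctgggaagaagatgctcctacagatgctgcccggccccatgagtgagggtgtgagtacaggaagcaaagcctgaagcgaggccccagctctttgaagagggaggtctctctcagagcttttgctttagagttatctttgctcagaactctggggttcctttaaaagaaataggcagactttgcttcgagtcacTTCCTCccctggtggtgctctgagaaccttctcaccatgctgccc
P2rx4: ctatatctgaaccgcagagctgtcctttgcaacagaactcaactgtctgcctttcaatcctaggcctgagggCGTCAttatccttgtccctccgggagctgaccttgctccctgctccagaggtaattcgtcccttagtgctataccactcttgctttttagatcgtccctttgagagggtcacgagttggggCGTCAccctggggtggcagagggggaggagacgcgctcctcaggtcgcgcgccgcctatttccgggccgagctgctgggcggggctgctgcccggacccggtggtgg
Both P2rx7 windows hold GAGGAA just past the start, at bases 11 and 6, and the first also holds TGANTCA 249 bases before it. The P2rx4 window holds TGACG 178 and 57 bases before the start. Among all windows, 7.81% hold a TGANTCA. The window of P2rx4 holds 18 CG dinucleotides, against 8 and 4 in those of P2rx7. RefSeq windows were found for 8 of the 9 genes, 10 windows in all; 4 of them hold GAGGAA, 3 TGACG and 0 ACGTG, which 19.6% of all windows hold. Adora2a was not matched.

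The patterns over cell classes were alike in both libraries for most genes. Over the 19 classes the r between the libraries was 0.97 for Dpp4, 0.96 for P2rx7, 0.92 for P2rx4, 0.90 for Cd38, 0.89 for Adora2a, 0.88 for Entpd1, 0.84 for Nt5e, 0.70 for Adora2b and 0.47 for Ada. These are descriptions, since cell classes of 1 library share mice and depth.

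Between the antibodies, few pairs of a gene and a class differed by 2-fold, and smaller differences were more often up in anti-PD-1 than over all genes. Of 144 pairs of a gene and a compared class, 105 had at least 10 UMIs over both libraries; 3 of these (2.86%) were at least 2-fold higher in anti-PD-1 on log2(CPM + 5) and 0 were 2-fold lower. Over all genes and classes, 2.71% of 171061 pairs were 2-fold higher and 2.28% lower, so the share past 2-fold was near the background upward and below it downward. At the class level, 5.76% of genes in NK cells, 3.16% in B cells and 3.21% in monocytes were 2-fold higher. The interval of the ratio lay above 0 in 19 pairs (18.1%) and below 0 in 12 (11.4%), against 8.86% and 10.6% of all pairs, and held 0 in 74. The pairs share cells and libraries, and well-counted genes have narrower intervals. The median log2 ratio over the 105 pairs was 0.03, and that over all genes of a class lay between -0.16 in microglia and 0.06 in undivided T cells, those without a CD4 or CD8 call.

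**Figure D2:**
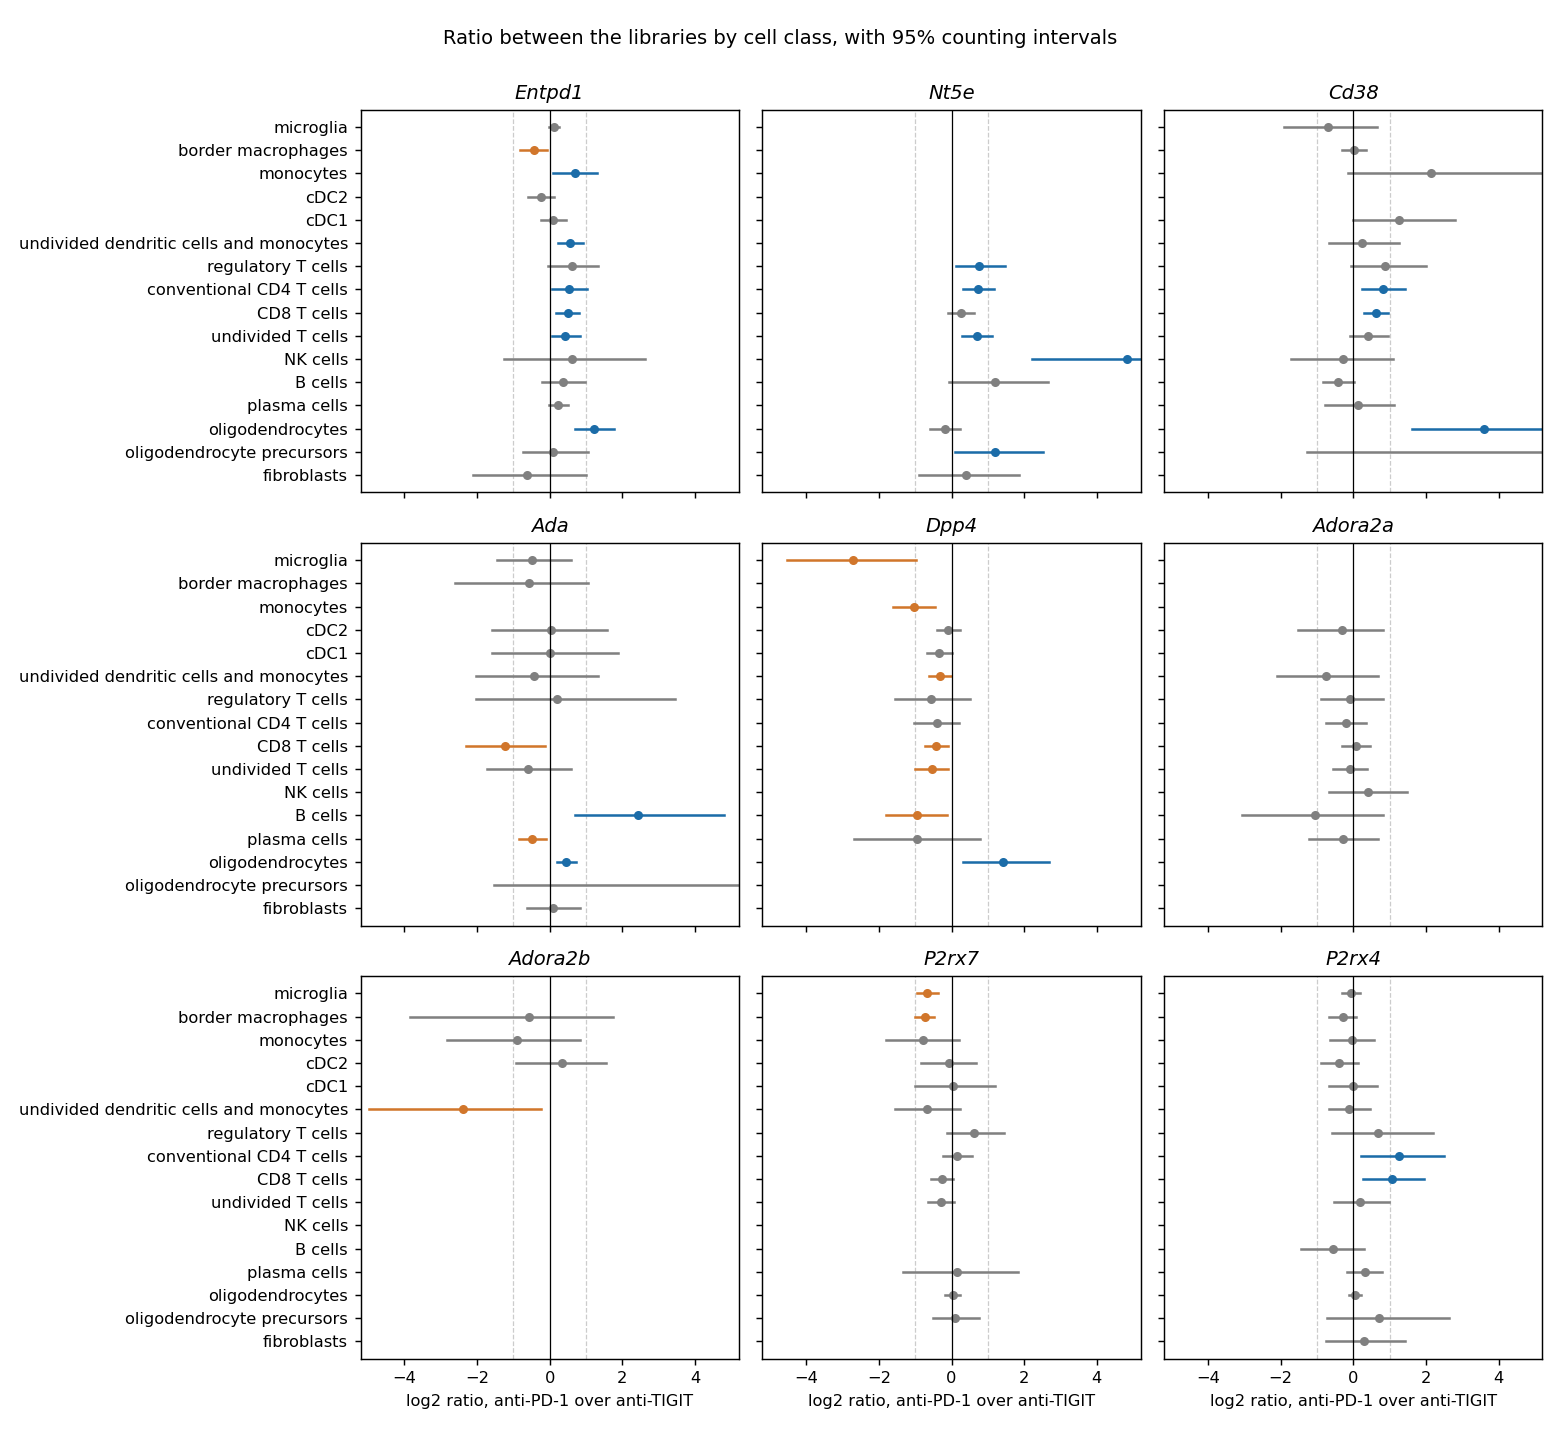
Log2 ratio of CPM in anti-PD-1 over anti-TIGIT for each of the 9 genes (panels) in the compared cell classes (rows), with 95% counting intervals, clipped at the axis limits; pairs under 10 UMIs are left out and dashed lines mark 2-fold. Intervals above 0 are blue, below 0 orange, and grey where they hold 0; Nt5e in NK cells lies at 4.83, and 2 intervals in oligodendrocyte precursors, for Cd38 (14 and 0 UMIs) and Ada (12 and 0), have no point because the anti-TIGIT count is 0.

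The 3 pairs past 2-fold rest on few molecules. Nt5e in NK cells came to 26 UMIs in anti-PD-1 and 1 in anti-TIGIT, a log2 ratio of 4.83 (2.23 to 10.2), but the 26 UMIs lay in 8 of 65 cells and 18 of them in 2 cells. In NK cells with a UMI of Gzma, a granzyme, Nt5e came to 11 UMIs in 37 cells and 0 in 46. Ada in B cells came to 24 and 3 UMIs, 29.4 CPM (18.9 to 43.8) and 5.48 CPM (1.13 to 16.0), a log2 ratio of 2.43 (0.71 to 4.80); plasma cell markers summed to 1621 and 1034 CPM in these B cells, and their part was not tested. Cd38 in monocytes came to 9 and 2 UMIs, with an interval that holds 0 (-0.14 to 5.38). Some ratios of CPM itself passed 2-fold at levels where the added 5 CPM shrinks them, such as Dpp4 in microglia at 0.691 and 4.51 CPM and Ada in CD8 T cells at 3.08 and 7.17 CPM.

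Among smaller differences, Entpd1, Nt5e, Cd38 and P2rx4 leaned higher in the T cells that came with anti-PD-1. In CD8 T cells the log2 ratio was 0.50 (0.19 to 0.81) for Entpd1, 0.62 (0.30 to 0.95) for Cd38 and 1.06 (0.27 to 1.95) for P2rx4, while Dpp4 lay at -0.42 (-0.72 to -0.11). In conventional CD4 T cells it was 0.53 (0.06 to 1.02) for Entpd1, 0.73 (0.30 to 1.17) for Nt5e, 0.80 (0.23 to 1.41) for Cd38 and 1.26 (0.21 to 2.49) for P2rx4. Regulatory T cells gave 0.76 (0.12 to 1.48) for Nt5e. Undivided T cells gave 0.44 (0.06 to 0.83) for Entpd1 and 0.69 (0.30 to 1.103) for Nt5e, with Dpp4 at -0.55. The interval held 0 for Nt5e in CD8 T cells, at 0.25 (-0.09 to 0.61). It also held 0 for Entpd1, Cd38 and P2rx4 in regulatory T cells and for Cd38 and P2rx4 in undivided T cells. Across all genes, the interval lay above 0 for 11.9% in CD8, 8.75% in conventional CD4, 4.35% in regulatory and 12.3% in undivided T cells. Microglia markers summed to 120.0 and 49.2 CPM in CD8 T cells, 114 and 47.9 CPM in conventional CD4 T cells and 121 and 92.3 CPM in regulatory T cells, so they moved the same way as Entpd1 and P2rx4, both high in microglia; their part was not tested. Nt5e and Cd38 are near 0 in microglia, but other markers moved the same way. B cell markers, of a class high in Cd38, summed to 44.2 and 3.26 CPM in conventional CD4 and 32.5 and 0 CPM in regulatory T cells, and plasma cell markers to 735 and 157 CPM and to 1017 and 88.9 CPM; in CD8 T cells both were lower in anti-PD-1, at 13.8 and 16.9 CPM and at 296 and 624 CPM. Migratory dendritic cell markers summed to 163 and 84.8 CPM in conventional CD4 and 140 and 58.1 CPM in regulatory T cells. Of Nt5e, B cells themselves held 29.4 and 12.8 CPM, plasma cells 0.352 and 0.683 CPM and migratory dendritic cells 1.82 and 0 CPM. Of Cd38, plasma cells held 5.64 and 5.12 CPM and migratory dendritic cells 16.4 and 16.9 CPM. The part of these markers was not tested.

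The CD8 class was also made up differently in each library, by clusters of all cells on their variable genes, from which the 9 genes were not left out. Of its cells, 899 (67.0%) and 104 (20.7%) lay in cluster 6, and 341 (25.4%) and 341 (67.8%) in cluster 5. Within cluster 5 the log2 ratio was -0.16 (-0.79 to 0.47) for Entpd1, 0.72 (0.20 to 1.26) for Cd38 and 0.41 (-0.87 to 1.79) for P2rx4, and within cluster 6 it was 0.38 (-0.10 to 0.89), 0.29 (-0.20 to 0.82) and 2.07 (0.15 to 5.14). Dpp4 held 0 within both, at -0.13 (-0.57 to 0.32) and -0.29 (-0.90 to 0.36). Conventional CD4 T cells were spread over clusters 7, 11 and 23, and Entpd1 came to -0.76 (-2.09 to 0.47) within cluster 7 and -0.39 (-1.62 to 0.91) within cluster 11. Nt5e came there to 0.94 (-0.01 to 1.94) and 0.20 (-0.39 to 0.82). The intervals for Entpd1 thus held 0 within each of these 4 clusters; cluster 23 held 146 and 44 conventional CD4 T cells, too few in anti-TIGIT for a value. These directions were not all stable in other ways. On log2(CPM + 5), Cd38 and P2rx4 in CD8 T cells turned to -0.29 and -0.32 among Xist-positive cells, which numbered 52 in anti-TIGIT. Entpd1 in conventional CD4 T cells turned to -0.10 after thinning and, with classes from clusters named at 40% of gated cells, to -0.72, where Nt5e came to 0.03.

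Among myeloid cells, P2rx7 was lower in anti-PD-1 in border macrophages, at -0.73 (-1.01 to -0.47), and in microglia, at -0.67 (-0.94 to -0.38), or 50.8 against 80.6 CPM. In border macrophages P2rx7 was uneven between cells, and 5 and 42 cells held 5 or more UMIs. Without these cells the rest stood at 145 and 163 CPM. They were left out by the value compared, which narrows the gap by construction, so no conclusion is drawn from it. The shares of cells with a UMI were 37.4% and 39.96%. The microglia lay mainly in different clusters, with 752 and 66 in cluster 0 and 145 and 244 in cluster 20, and the P2rx7 ratio was -0.50 (-1.05 to 0.10) within the first and -0.77 (-1.34 to -0.21) within the second. Over all genes of the class, the interval lay below 0 for 6.79% in border macrophages and for 24.5% in microglia, where the median log2 ratio was itself -0.16. Border macrophage markers summed to 48.0 and 288 CPM in microglia. In the 1229 and 357 microglia without a UMI of any such marker, P2rx7 stood at 49.0 and 83.5 CPM, -0.77 (-1.08 to -0.45). In the 119 and 112 microglia with such a UMI, it stood at 66.7 and 71.7 CPM, -0.10 (-0.75 to 0.57). The part of these markers was not tested. With clusters in place of gates, the border macrophage value on log2(CPM + 5) shrank from -0.72 to -0.35. Entpd1 went both ways among myeloid classes. In border macrophages it lay at -0.43 (-0.81 to -0.06). It lay at 0.70 (0.11 to 1.31) in monocytes and at 0.56 (0.23 to 0.91) in undivided dendritic cells and monocytes. Its interval held 0 in microglia, cDC1 and cDC2. Dpp4 in monocytes lay at -1.02 (-1.61 to -0.45), from 40 and 79 UMIs, and turned to 0.60 among Xist-positive cells. In monocytes cDC2 markers summed to 307 and 406 CPM, and their part was not tested. In oligodendrocytes, Cd38 (32 and 2 UMIs), Dpp4 (32 and 9) and Entpd1 (127 and 41) were all higher in anti-PD-1, and so were markers of T cells, at 28.8 and 5.97 CPM, of plasma cells, at 371 and 62.2 CPM, and of microglia, at 374 and 282 CPM, in the same cells; their part was not tested. In that class 19.3% of all genes had an interval above 0.

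CD8 T cells were next divided by the presence of a Pdcd1 UMI, within each library, so that both sides share mice and library. Exhausted CD8 T cells, worn down by lasting antigen, carry Pdcd1 and the transcription factor Tox, which stood at 918 CPM with Pdcd1 and 241 without in anti-PD-1, and at 860 and 103 in anti-TIGIT. In anti-PD-1 (1063 cells with, 278 without), Entpd1 stood at 86.9 CPM with Pdcd1 (79.0 to 95.5) and 29.0 CPM without (19.8 to 40.9), a log2 ratio of 1.58 (1.07 to 2.15). In anti-TIGIT (165 with, 338 without) it stood at 66.7 CPM (50.6 to 86.2) and 44.3 CPM (32.7 to 58.8), a ratio of 0.59 (0.01 to 1.17). Nt5e was also higher with Pdcd1, by 0.78 (0.28 to 1.31) and 1.17 (0.51 to 1.85). P2rx7 went the other way, at 48.1 and 87.0 CPM in anti-PD-1, a ratio of -0.85 (-1.20 to -0.50), and 27.6 and 97.9 CPM in anti-TIGIT, a ratio of -1.83 (-2.53 to -1.18). In these splits, 3.80% and 5.07% of all genes were 2-fold higher with Pdcd1 and 1.06% and 2.14% 2-fold lower.

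The ratios for Cd38 and Adora2a held 0 in both libraries, at 0.31 (-0.06 to 0.70) and -0.14 (-0.77 to 0.47) for Cd38 and -0.15 (-0.61 to 0.34) and 0.43 (-0.27 to 1.14) for Adora2a. Dpp4 was lower with Pdcd1 in anti-PD-1, at -0.45 (-0.84 to -0.04), and held 0 in anti-TIGIT. Cells with a Pdcd1 UMI were deeper, with medians of 4045 and 3728.5 UMIs in anti-PD-1 and 3982 and 2899.5 in anti-TIGIT. Microglia markers summed to 128 and 83.4 CPM in anti-PD-1 and 46.0 and 51.7 in anti-TIGIT, and plasma cell markers to 297 and 294 CPM and to 83.9 and 1059 CPM; their part was not tested. With cells thinned to 1000 UMIs before the split, 6 of 13 values moved. On log2(CPM + 5), P2rx7 went from -0.79 and -1.66 to -0.40 and -0.91, Entpd1 from 1.44 and 0.54 to 1.34 and 0.95, and Nt5e from 0.70 and 1.04 to 0.47 and 2.32, the last on 19 UMIs. In anti-TIGIT, Cd38 went from -0.13 to 0.78, Adora2a from 0.38 to -1.28 and Dpp4 from -0.24 to -1.97, on 32, 17 and 28 UMIs.

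**Figure D3:**
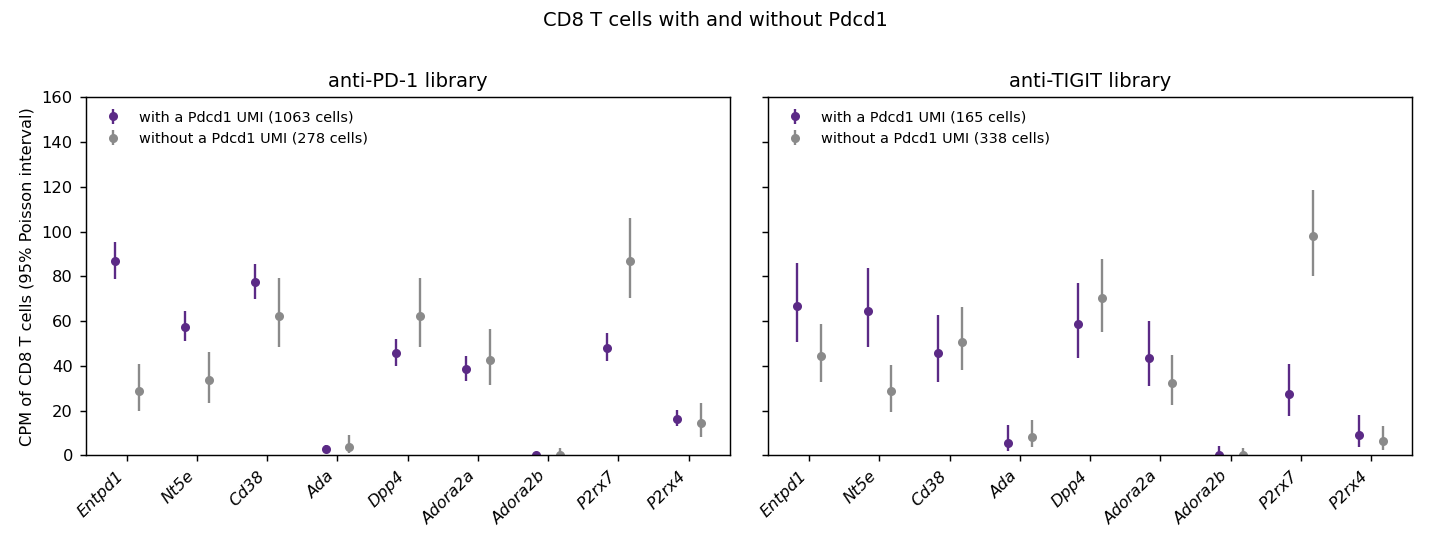
CPM of the members in CD8 T cells with at least 1 Pdcd1 UMI and without, for the anti-PD-1 and anti-TIGIT libraries, with exact 95% Poisson intervals. Entpd1 and Nt5e are higher with Pdcd1 in both libraries and P2rx7 lower, at 27.6 against 97.9 CPM in anti-TIGIT.

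Border macrophages varied among themselves. Lyve1, a hyaluronan receptor, marks perivascular and some meningeal macrophages, and a split by a Lyve1 UMI, chosen after the data were seen, put 94 and 262 cells on 1 side, at median depths of 3572 and 3689 UMIs, and 69 and 211 on the other, at 3812 and 2717. P2rx7 stood at 291 CPM with Lyve1 and 98.3 without in anti-PD-1, a log2 ratio of 1.57 (0.94 to 2.24), and at 482 and 136 CPM in anti-TIGIT, a ratio of 1.83 (1.5 to 2.17). Cd38 followed, at 1.27 (0.59 to 2.01) and 1.29 (0.85 to 1.74), while the ratios for P2rx4 held 0, at 0.29 (-0.41 to 1.01) and 0.06 (-0.31 to 0.45). P2rx7 was also uneven between cells: in anti-TIGIT, 42 of 473 border macrophages held 5 or more UMIs and 59.5% of the class's P2rx7 UMIs, with up to 30 in 1 cell, and in anti-PD-1 5 of 163 held 35.5%.

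**Figure D4:**
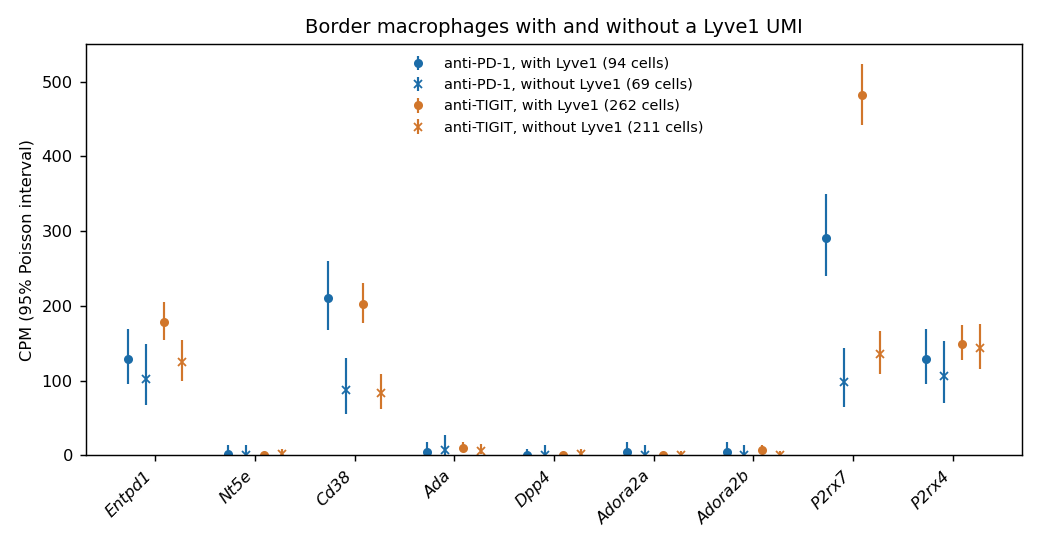
CPM of the 9 genes in border macrophages with (circles) and without (crosses) a Lyve1 UMI, by library (colour), with exact 95% Poisson intervals. P2rx7 with Lyve1 reaches 291 CPM in anti-PD-1 and 482 in anti-TIGIT; P2rx4 is alike on both sides, at 129 and 106 CPM and at 149.7 and 143 CPM.

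Around the 9 genes, 57 listed genes of the same pathways were measured, 49 of them with at least 50 UMIs. Of 524 pairs of a listed gene and a class, 32 (6.11%) were 2-fold higher in anti-PD-1 and 19 (3.63%) lower, against 2.71% and 2.28% of all pairs; their median log2 ratio was -0.01. Art2b, in 6 classes, and P2ry14, in 5, made up 11 of the 32, and the other listed genes were 2-fold higher in 21 of 499 pairs, 4.21%. These genes were set apart because they had the most such calls, which lowers the share by construction, so no conclusion is drawn from it. By list, 10 of 113 pairs of the other surface enzymes were 2-fold higher and 0 lower, 7 and 3 of 65 pairs of P2Y receptors, 8 and 6 of 88 of P2X7 effectors, 2 and 4 of 97 of adenosine uptake and removal, 1 and 4 of 110 of the cyclic AMP genes, 2 and 1 of 40 of ATP release, 2 and 1 of 7 of the other adenosine receptors, and 0 of 4 of the other P2X receptors. The 10 calls among the other surface enzymes were Art2b in 6 classes, Enpp2 in 3 and Acpp in 1. Enpp2 was higher in CD8 T cells, undivided T cells and plasma cells. Oligodendrocyte markers summed there to 541 and 396 CPM, 612 and 523 CPM, and 189 and 104 CPM, and their part was not tested. Other enzymes that split nucleotides outside the cell were mostly glial or stromal. Enpp2 (autotaxin) stood at 2252 and 2515 CPM and Enpp4 at 221 and 229 CPM in oligodendrocytes, and Alpl, alkaline phosphatase, at 310.3 and 435 CPM in fibroblasts. Among genes of ATP release, Gja1 (connexin 43) was highest in fibroblasts, at 400.02 and 520 CPM, and Panx1 in regulatory T cells, at 89.6 and 99.1 CPM. Adk, the kinase that clears adenosine inside the cell, was highest in oligodendrocytes at 138 and 175 CPM, and the transporter Slc29a3 and the phosphorylase Pnp in microglia, at 102 and 135 CPM and at 319 and 445 CPM.

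Other receptors peaked in several classes. Adora1 was highest in oligodendrocyte precursors at 93.1 and 88.2 CPM and Adora3 in microglia at 67.03 and 63.7 CPM, P2ry12 in microglia, P2ry14 in cDC1 at 116 CPM in both, and P2ry6 in undivided macrophages at 242 and 263 CPM. Between the libraries, microglial P2ry12, a receptor for ADP that homeostatic microglia carry, stood at 475 and 1139 CPM (-1.26, -1.34 to -1.18). Microglial P2ry14 stood at 40.3 and 7.33 CPM (2.46, 1.67 to 3.38) and was 2-fold higher in anti-PD-1 in 5 classes in all: microglia, NK cells, monocytes, cDC2 and undivided dendritic cells and monocytes. Adora1 in microglia stood at 33.5 and 11.8 CPM. Within the microglia of cluster 0 the log2 ratio was -0.77 (-0.95 to -0.59) for P2ry12, 1.43 (0.37 to 2.75) for P2ry14 and 0.65 (-0.25 to 1.73) for Adora1, and within those of cluster 20, which hold more of the anti-TIGIT cells, it was -0.26 (-0.38 to -0.14), 0.42 (-2.48 to 3.32) and -1.90 (-5.13 to 0.33). P2X7 effectors moved both ways: Nlrp3 and Pycard, inflammasome genes, were highest in microglia at 183 and 224 CPM and at 318 and 255 CPM, while Il1b, the cytokine that P2X7 releases, was 2-fold lower in anti-PD-1 in regulatory T cells, border macrophages, cDC1, fibroblasts and undivided dendritic cells and monocytes, and 2-fold higher in conventional CD4 T cells, oligodendrocytes and plasma cells. In these, cDC2 markers summed to 30.2 and 33.7 CPM, 13.9 and 3.23 CPM, and 12.5 and 11.9 CPM, so that they moved with Il1b in oligodendrocytes. Where Il1b was lower, they moved with it in regulatory T cells, fibroblasts, and undivided dendritic cells and monocytes. They summed there to 41.2 and 64.9 CPM, 1.37 and 3.28 CPM, and 744 and 1990 CPM. In border macrophages and cDC1 they went the other way, at 337 and 322 CPM and at 206 and 176 CPM. The part of cDC2 markers was not tested. Il1b was most abundant in cDC2, at 3370 and 3292 CPM. Of the cyclic AMP genes, Pde4b, which breaks cyclic AMP down, was lower in border macrophages of anti-PD-1, at 25.8 and 114 CPM, as was Crem, at 12.1 and 39.9 CPM.

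Art2b codes for a mouse enzyme that opens P2X7 on T cells by ADP-ribosylation when NAD is released, and it was 2-fold higher in anti-PD-1 in all 4 compared T cell classes. CD8 T cells held 26.2 and 9.73 CPM, a log2 ratio of 1.43 (0.74 to 2.20), conventional CD4 T cells 75.01 and 23.9 CPM, 1.65 (0.99 to 2.37), regulatory T cells 98.4 and 17.1 CPM, 2.53 (1.26 to 4.17), and undivided T cells 62.3 and 24.6 CPM, 1.34 (0.78 to 1.95). Art2b was most abundant in migratory dendritic cells, at 78.2 and 90.02 CPM. Markers of that class summed to 78.7 and 58.4 CPM in CD8 and 163 and 84.8 CPM in conventional CD4 T cells. In regulatory and undivided T cells they summed to 140 and 58.1 CPM and to 99.5 and 69.4 CPM. Art2b was also 2-fold higher in cDC2 and border macrophages. T cell markers moved with it there, at 13.5 and 4.87 CPM and at 34.9 and 8.44 CPM. The part of all these markers was not tested. Within CD8 T cells of clusters 5 and 6 the ratio was 0.997 (-0.01 to 2.10) and 3.97 (1.46 to 9.28), and within conventional CD4 T cells of clusters 7 and 11 it was 1.74 (0.71 to 2.88) and 1.64 (0.62 to 2.84). In the Y-transcript-positive cells alone, undivided T cells turned to -0.26 on log2(CPM + 5), and CD8 T cells came to 0.59, short of 2-fold.

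Across 16 classes in both libraries (32 points, 13951 genes with at least 200 UMIs), the genes whose levels followed each member most closely by Pearson r on log2(CPM + 5) were Rnf19b for Entpd1 (0.89), Unc45a for Nt5e (0.90), Slc28a2 for Cd38 (0.79), Cped1 for Ada (0.78), Gm13561 for Dpp4 (0.93), Spn for Adora2a (0.95), Adgre4 for Adora2b (0.85), Slc9a9 for P2rx7 (0.82) and Slc29a3 for P2rx4 (0.90). The next in order were Ier5 and Rgs10 for Entpd1, Cdk17 and Ddb2 for Nt5e, Gm26510 and Grap for Cd38, Pdia4 and Dnajc3 for Ada, Btla and Phf11a for Dpp4, Il27ra and Stat4 for Adora2a, AI839979 and Ifitm6 for Adora2b, Nfatc2 and Cndp2 for P2rx7, and Ctsz and Adgre1 for P2rx4. Among the members themselves, the highest r was 0.69, between Nt5e and Adora2a, the lowest -0.69, between Ada and P2rx7, and that between Entpd1 and Nt5e was -0.21.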

How the data were processed

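The 9 genes, the gene lists and the class markers were chosen with earlier results of these data known. The authors deposited UMI counts of each gene in each barcode, 1 library per treatment, made with Cell Ranger 8.0.0 (anti-PD-1) and 8.0.1 (anti-TIGIT) per the file headers, and the submitters' processing notes name the genome build mm10; they also name Seurat 5.0.3 and R 4.1.1, of which no output was used. The reads come from the 5′ end of transcripts, so counts do not scale with transcript length.

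Barcodes under 200 genes (39 and 89) and then those over 10% mitochondrial UMIs (107 and 176) were left out. Scrublet, with an expected rate of 0.8% per 1000 cells, removed 584 (4.22%) and 147 (1.92%) doublets, leaving 13267 and 7503 cells. Cells were put in classes by marker UMIs, with at least 2 distinct markers, at least 3 UMIs and a 1.5-fold margin over other classes; the margin was set after the data were seen. T cells, macrophages and dendritic cells that met a broad gate only are called undivided. Within each library the counts of a class were added up and expressed as CPM, with exact Poisson intervals, ratios with exact conditional binomial intervals and shares with exact Clopper-Pearson intervals, all at 95% and for counting error only. Counts of 0 are given with a floor of 3 counts. A difference was called at 2-fold on log2(CPM + 5), with at least 10 UMIs over both libraries, which understates changes of low genes. No p-values were computed, as cells are not replicates. The named genes are all 9 members, listed genes past 2-fold or by their highest class, and the 3 genes most alike each member. The ratio code was tested on simulated data. Promoter windows are RefSeq's.

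Alternatives were clusters (Leiden, resolution 1, named by at least 50% of their gated cells), stricter gates, other filters, scalings, depths, pseudocounts and minimum counts, and cells split by sex-linked transcripts. Added after the data were seen were clusters named at 40%, cells of at least 1500 UMIs, microglia without border macrophage markers, classes within single clusters of at least 50 of their cells per library, border macrophages with under 5 P2rx7 UMIs, and splits by Lyve1, H2-Ab1, Opalin, Slc47a1 and Gzma. Scripts ran in Python 3.11.15 and used scanpy 1.11.5, scipy 1.17.1, leidenalg 0.10.2, numpy 2.4.6, pandas 2.3.3, matplotlib 3.10.9 and igraph 0.11.9.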

Additional observations from a re-analysis of the deposited data

How the results depend on the processing

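No paired analysis was possible because each treatment has 1 library. The count of gene and class pairs past 2-fold, 3 higher and 0 lower in anti-PD-1, depends on the processing: it was 5 and 1 with clusters, 6 and 2 with clusters named at 40%, 6 and 1 with stricter gates, 5 and 0 with median ratio scaling, 7 and 3 with cells thinned to 1000 UMIs, 10 and 4 at a pseudocount of 1 CPM, 1 and 0 at 20 CPM, 6 and 1 at a minimum of 1 UMI, 0 and 0 at 50 UMIs, 12 and 1 in Xist-positive and 7 and 3 in Y-transcript-positive cells, and 3 and 1 in cells of at least 1500 UMIs. The counts over listed genes, 32 and 19, became 54 and 30 at a pseudocount of 1 CPM, 9 and 7 at 20 CPM, and 17 and 9 at a minimum of 50 UMIs. For these settings the pairs tested and the shares over all genes are not given. The background shares above hold for the main settings only. A change of pseudocount, minimum or number of cells can move the calls of all genes, so these counts are not results about the genes followed here. Art2b in undivided T cells turned to -0.26 in Y-transcript-positive cells; the cause was not tested. The highest class of each gene stayed the same under clusters named at 40%, without doublet removal and in cells of at least 1500 UMIs; with stricter gates Nt5e moved to conventional CD4 T cells, and with clusters named at 50%, where regulatory and conventional CD4 T cells have no cluster of their own, to undivided T cells. Depth limits Adora2b most, with 130 UMIs in all.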

Other observations

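Ada differed within oligodendrocytes, a split chosen after the data were seen. Opalin is a marker of mature myelinating oligodendrocytes, and cells with an Opalin UMI held 24.8 CPM of Ada against 10.2 CPM without in anti-PD-1, a log2 ratio of 1.28 (0.91 to 1.66), and 18.7 against 8.23 CPM in anti-TIGIT, a ratio of 1.18 (0.72 to 1.66). Entpd1, low in this class, was lower with Opalin. It stood at 3.68 against 11.3 CPM in anti-PD-1, -1.62 (-2.19 to -1.07), and at 1.72 against 4.19 CPM in anti-TIGIT, -1.28 (-2.36 to -0.29). Cd38 was also lower with Opalin in anti-PD-1, at 0.526 against 3.45 CPM, -2.71 (-4.29 to -1.40), and had 1 UMI on each side in anti-TIGIT. The part of markers of other classes was not tested in this split. For P2rx7 and P2rx4 the intervals held 0 in both libraries. Nt5e was higher with Opalin, at 0.70 (0.10 to 1.33) and 0.98 (0.34 to 1.66). Median depths were 6595 UMIs with Opalin and 2305 without in anti-PD-1, and 5773 and 6909.5 in anti-TIGIT.

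In fibroblasts, Ada lay almost wholly in cells with a UMI of the transporter Slc47a1, which held 60 of 61 Ada UMIs in anti-PD-1 (46.1 against 6.27 CPM) and 23 of 24 in anti-TIGIT (45.8 against 9.29 CPM), with median depths of 7474 and 3476 UMIs and of 5955 and 2129; the interval of the ratio held 0 in anti-TIGIT (-0.32 to 7.67). In microglia split by H2-Ab1, an MHC class II gene, Entpd1 lay at 0.34 (0.12 to 0.57) in anti-PD-1 and at -0.18 (-0.44 to 0.08) in anti-TIGIT, with median depths of 6391.5 and 3816.5 UMIs and of 3961 and 3259.5.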
